A study of Homo sapiens with 6 samples.

Results

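The messenger RNAs of 48 lysosomal genes, chosen by symbol from the 56638 symbols counted, were compared between HCT116 cells with and without a METTL3 knockout. They cover transcription factors (3 genes), membrane proteins (6), proteases (7), glycosidases (9), lipid-handling and other soluble proteins (10), subunits of the proton pump (8) and the sorting machinery that delivers enzymes to the lysosome (5). HCT116 is a human colorectal carcinoma cell line. METTL3 is the catalytic subunit of the complex that writes N6-methyladenosine on messenger RNA. The groups were WT (wild type, 3 samples) and METTL3-KO (METTL3 knock out, 3 samples), with no treatment named in the labels, at passages 16-19 and grown in the same medium. The question asked of these genes was whether a lower level of lysosomal sugar-cleaving enzymes belonged to a wider lysosomal change. The METTL3-KO samples came from 1 monoclonal CRISPR line, so the knockout and the clone cannot be told apart. The labels do not say that replicates were separate cultures, so the p-values measure only the spread between these samples.

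The lysosome is an acidic compartment in which proteins, glycans and lipids are broken down by soluble hydrolases. A proton pump of many subunits, the V-ATPase, acidifies it, and most of the hydrolases reach it after a mannose 6-phosphate tag is added in the Golgi and read by sorting receptors. TFEB, TFE3 and MITF are related transcription factors that bind E-box letters in the promoters of many lysosomal genes and raise their transcription when they enter the nucleus.

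The lysosomal genes did not move as 1 group. Of the 48 genes 47 were tested, with edgeR's quasi-likelihood test and Benjamini-Hochberg adjustment over 22452 genes, and at an adjusted p under 0.05 the METTL3-KO level was lower for 10 and higher for 5, while 32 did not pass. Among all tested genes 13.2% were lower and 13.3% higher. Almost all of the lysosomal genes were well expressed, so the fairer background is that of the 11259 genes with a mean of at least 5 CPM (the count as a share of the library total, scaled alike in all libraries), where 20.7% were lower and 19.9% higher. At that level 10 of 45 lysosomal genes (22.2%) were lower, close to the background, and 5 of 45 (11.1%) were higher. The median log2 fold change of the 47 genes, given throughout as METTL3-KO over WT, was -0.02, and that of all tested genes was also -0.02. The fold changes ran from -1.90 to 0.59 on the log2 scale, and 30 of the 47 lay within 0.25 of 0. The METTL3-KO samples all lay below the WT samples for 13 of the 47 genes and all above for 9, against 20.7% and 20.2% of all tested genes. These 2 shares include genes under 5 CPM and were not computed for the fairer background. The gene not tested was GALC, galactosylceramidase, which had 0 counts in every library except METTL3-KO replicate 1, with 1 count.

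**Figure D1:**
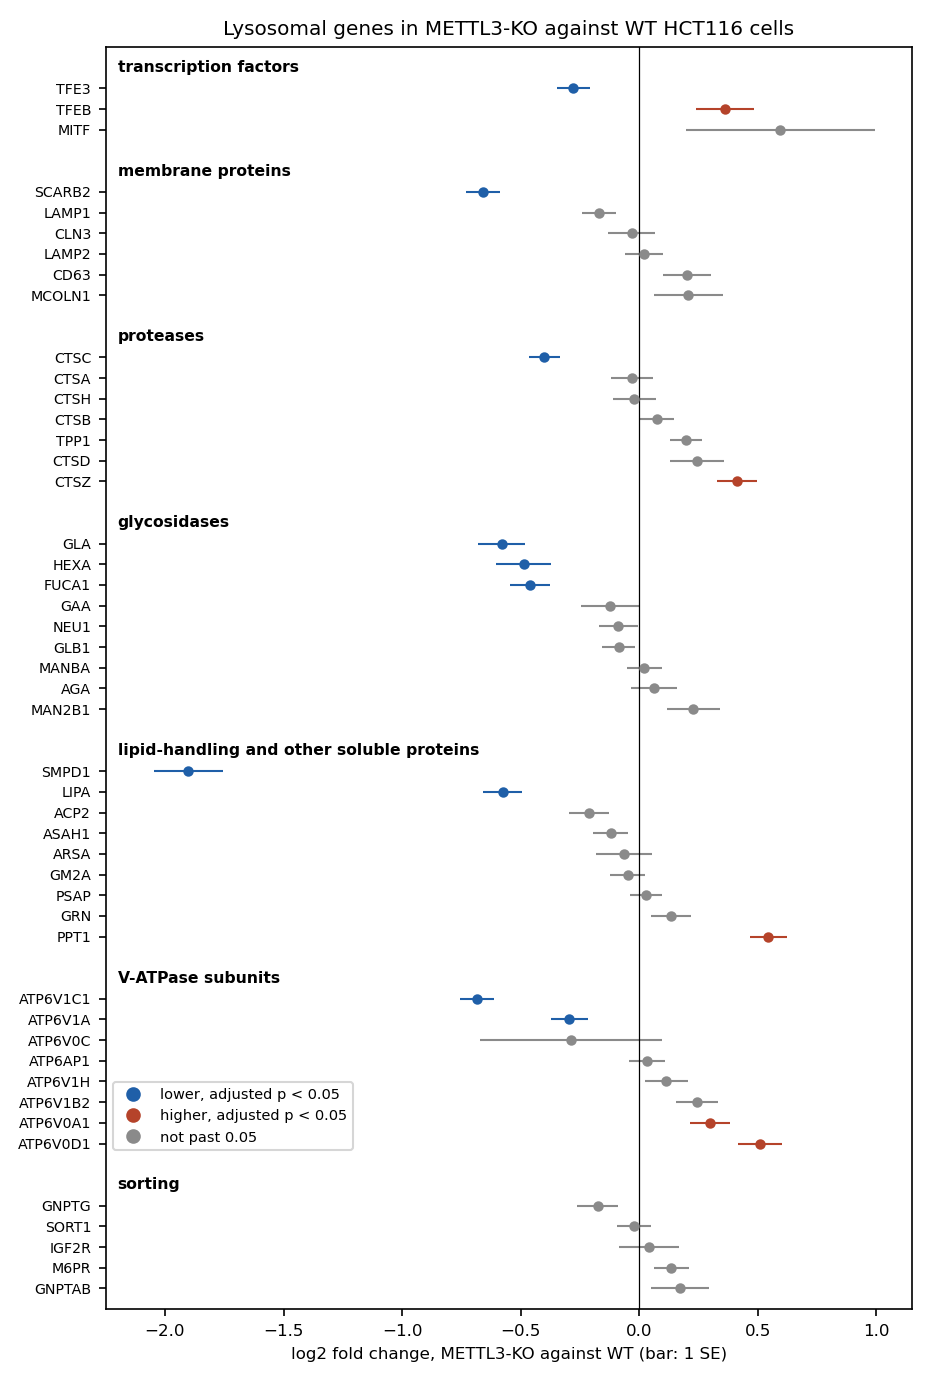
Log2 fold change (METTL3-KO over WT) of the 47 tested lysosomal genes, ordered by role, with bars of 1 standard error. Genes called lower (10) and higher (5) are coloured, and SMPD1 at -1.90 stands far below every other gene.

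Counts on genes ran from 20936091 to 30142144 per library. METTL3 itself was at 30.6, 30.2 and 29.2 CPM in WT and at 7.26, 7.69 and 6.89 CPM in METTL3-KO cells (log2 fold change -2.04, SE 0.0906, adjusted p = 1.59e-07, edgeR), so part of its mRNA was still present. The third replicate of each group stood apart from the first and second: deviations of gene levels from the group mean followed transcript length with a Spearman correlation across 10033 genes of 0.705 in WT replicate 3 and -0.643 in METTL3-KO replicate 3. The summed level of 7 epithelial markers was 6010 to 7467 CPM in WT and 9020 to 9941 CPM in METTL3-KO libraries, and 5 of the 7 rose, among them the keratin gene KRT20 from 251.7 to 713.0 CPM. Markers of immune cells summed to 5.44 to 6.90 CPM in WT and 6.83 to 10.7 CPM in METTL3-KO, fibroblast markers to 4.92 to 6.74 and 8.86 to 9.86 CPM, and endothelial markers to at most 0.182 CPM, with AIF1, COL1A2, PECAM1 and KDR at 0 in all libraries. The part of the epithelial change in the lysosomal values was not tested. In bulk RNA, a smaller share of cells that express a gene and less of its RNA per cell cannot be told apart.

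Of the transcription factors, TFE3 fell and TFEB passed the test narrowly in the other direction. TFE3 was at 88.0, 91.6 and 87.1 CPM in WT and at 74.8, 70.5 and 74.5 CPM in METTL3-KO cells (log2 fold change -0.28, SE 0.0698, adjusted p = 0.0112, edgeR). Every METTL3-KO sample was below every WT sample. The TFE3 call did not hold without METTL3-KO replicate 2 (adjusted p = 0.0714) or without WT replicate 2 (adjusted p = 0.0548). TFEB was at 20.9, 17.4 and 14.9 CPM in WT and at 21.7, 21.9 and 25.0 CPM in METTL3-KO cells (log2 fold change 0.36, SE 0.121, adjusted p = 0.0457, edgeR). The lowest METTL3-KO value was only just above the highest WT value. When 1 sample was left out, TFEB passed in 1 of 6 fits, the one without WT replicate 1 (adjusted p = 0.0113), and the adjusted p without each of the other samples lay between 0.0539 and 0.139. MITF, the melanocyte member of the family, had 6 to 14 counts per library, too few to show a difference of this size (log2 fold change 0.59, SE 0.397, adjusted p = 0.308, edgeR). Summed over the 3 genes, of which TFE3 holds most of the counts, the level was 102.2 to 109.4 CPM in WT and 92.9 to 100.1 CPM in METTL3-KO libraries, and the groups did not overlap. Nuclear entry of these factors was not measured.

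Letters that these factors can bind were looked up in the promoters, as a feature that the choice of genes did not use. RefSeq promoters (GRCh38.p14, 250 bases before to 50 after the start of transcription) matched 37 of the 48 genes. The E-box CACGTG, which reads the same on both strands, was present for 12 of the 37 genes (32.4%), against 11.9% of 11370 tested genes with a promoter and 8.77% of all 27305 genes. The longer core TCACGTGA, each copy of which contains a CACGTG, was present for 8 of the 37 (21.6%), against 1.97% of the tested genes and 1.18% of all genes. Of the membrane proteins 4 of 5 held CACGTG, of the sorting genes 3 of 5, of the proteases 2 of 6, of the glycosidases 2 of 7 and of the V-ATPase subunits 1 of 4, while 0 of 7 lipid-handling and other soluble proteins and 0 of 3 transcription factors did. The following 30-base stretches, 1 from each of 6 genes, show the longer core nearest to the start of transcription with CACGTG in capitals. LAMP1 has 6 copies of CACGTG in its promoter, more than any other of the 12 genes, and 2 of them are the longer core. ATP6V0D1 is the gene among the 12 that was called in the fit of all samples.
LAMP1 (chr13:113297226-113297255, plus strand): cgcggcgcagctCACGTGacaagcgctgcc
MCOLN1 (chr19:7522598-7522627, plus strand): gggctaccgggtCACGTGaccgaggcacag
CTSA (chr20:45891298-45891327, plus strand): ggcgccggagttCACGTGactcgtacacat
GAA (chr17:80101538-80101567, plus strand): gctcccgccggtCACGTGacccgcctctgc
GNPTG (chr16:1351923-1351952, plus strand): tgaccgtcacttCACGTGaccgcgcggcgg
ATP6V0D1 (chr16:67481199-67481228, minus strand): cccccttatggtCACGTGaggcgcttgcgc

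Of the 12 genes with CACGTG 0 were lower and 1 was higher in METTL3-KO cells, and 11 did not pass. Of the 24 tested genes with a promoter but without these letters, 7 were lower and 4 were higher. The shares over all tested genes with a mean of at least 5 CPM were 20.7% lower and 19.9% higher. HEXA, ATP6V1A and ATP6V1C1, which were also lower, matched no RefSeq promoter, so whether they hold the letters is not known. The medians were 0.0052 and -0.02 on the log2 scale, and the fold changes ran from -0.18 to 0.51 with the letters and from -1.90 to 0.59 without them. The 2 groups of genes were set side by side as a description, and their difference was not tested. These calls depend on the third replicates. Without replicate 3 of both groups, edgeR's test called LAMP1, CLN3, CTSA, GAA, NEU1 and GNPTG lower and M6PR and IGF2R higher. ATP6V0D1 still passed. Among the genes with a promoter but without the letters, CTSH and ACP2 were then gained as lower. TPP1 and GNPTAB were gained as higher, and TFEB was lost. Over the 21242 genes tested in that fit 22.7% were lower and 21.4% higher. A match gives the letters of a 300-base window only and says nothing of whether a factor is bound there.

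**Figure D2:**
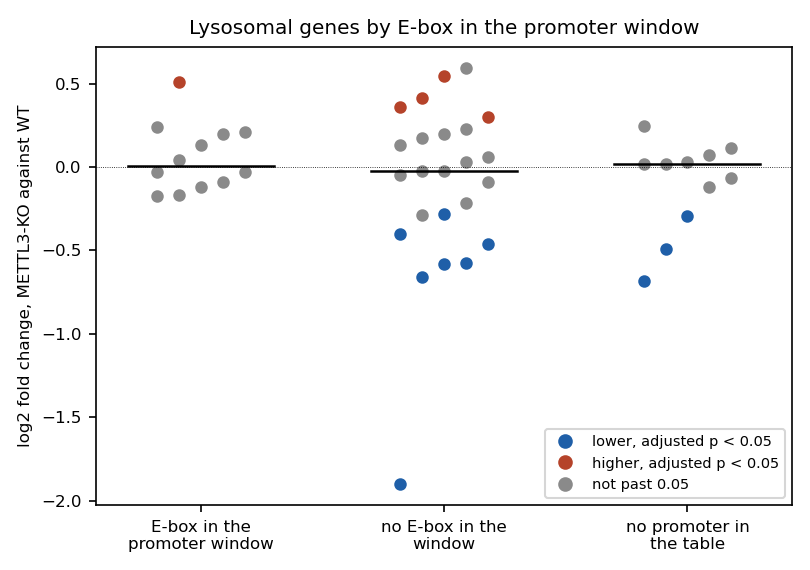
Log2 fold change (METTL3-KO over WT) of lysosomal genes whose RefSeq promoter holds CACGTG (12 genes) or does not (24 tested genes), or has no promoter in the table (11 genes), each point 1 gene coloured by call, with the median as a line. Fold changes and calls are those of the fit with all 6 samples, and the calls depend on the third replicates. Points with the letters lie between -0.18 and 0.51, and the 7 lower genes with a promoter lie in the group without them.

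Among the membrane proteins, SCARB2 fell and the other 5 did not pass. SCARB2, also known as LIMP-2, is an abundant protein of the lysosomal membrane that also acts as a transport receptor. It was at 244.9, 255.0 and 276.8 CPM in WT and at 160.4, 169.3 and 161.7 CPM in METTL3-KO cells, so that the METTL3-KO mean was 63.3% of the WT mean (log2 fold change -0.66, SE 0.0723, adjusted p = 5.06e-05, edgeR). The groups lay far apart, and SCARB2 (GRCh37 chr4:77079890-77155689, minus strand) shares no exon bases with another gene.

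The abundant structural proteins of the lysosomal membrane showed smaller differences. LAMP1 was at 296.8, 289.0 and 273.2 CPM in WT and at 257.1, 241.4 and 265.3 CPM in METTL3-KO cells, without overlap, but did not pass (log2 fold change -0.17, adjusted p = 0.0992, edgeR). LAMP2, its relative, was at 78.2 ± 6.97 CPM in WT and 79.2 ± 1.61 CPM in METTL3-KO cells (SD, n = 3). The tetraspanin CD63 was at 459.5, 460.3 and 367.7 CPM in WT and at 461.8, 465.6 and 552.2 CPM in METTL3-KO cells. For CD63 replicate 3 of each group gave most of the difference, and the log2 fold change of 0.20 did not pass (adjusted p = 0.171, edgeR). MCOLN1, the lysosomal calcium channel, was at 8.32 ± 0.441 and 9.59 ± 2.09 CPM, and CLN3, a membrane protein mutated in Batten disease, at 29.4 ± 3.56 and 28.8 ± 1.35 CPM in WT and METTL3-KO cells (SD, n = 3).

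Of the 7 proteases, CTSC fell, CTSZ rose and the other 5 did not pass. CTSC, a dipeptidyl peptidase that activates serine proteases, was at 167.8, 160.7 and 162.7 CPM in WT and at 127.3, 121.6 and 123.1 CPM in METTL3-KO cells (log2 fold change -0.40, SE 0.0667, adjusted p = 0.000891, edgeR). The replicates of each group lay close together, with SDs of 3.68 and 2.97 CPM. CTSZ, a carboxypeptidase, was at 524.2, 520.5 and 432.6 CPM in WT and at 640.2, 630.2 and 696.1 CPM in METTL3-KO cells (log2 fold change 0.41, SE 0.0851, adjusted p = 0.0035, edgeR). The CTSZ groups did not overlap, but 31.7% of its exon bases (GRCh37 chr20:57560741-57583293) overlap NELFCD on the opposite strand, and the library kit does not mark strand.

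The tripeptidyl peptidase TPP1 was at 136.6, 146.0 and 142.0 CPM in WT and at 162.1, 167.3 and 157.6 CPM in METTL3-KO cells, which narrowly missed the threshold (log2 fold change 0.20, adjusted p = 0.0505, edgeR) and passed with DESeq2 (adjusted p = 0.0337) and without WT replicate 3 (adjusted p = 0.0195, edgeR). The aspartic protease CTSD was at 261.0, 245.2 and 193.6 CPM in WT and at 257.9, 254.8 and 315.6 CPM in METTL3-KO cells, overlapping and not called (adjusted p = 0.146, edgeR). For CTSD, as for CD63, replicates 1 and 2 of both groups were alike and the third replicates lay on opposite sides. CTSA, CTSB and CTSH had log2 fold changes of -0.03, 0.07 and -0.02. Because CTSZ is abundant, the summed level of the 7 proteases was higher in METTL3-KO libraries, at 1704, 1690 and 1873 CPM against 1659, 1627 and 1416 CPM in WT.

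The glycosidases, which cleave sugars from glycoproteins and glycolipids, had 3 of 9 members (33.3%) lower and 0 higher. Beside this small count, 20.7% of all tested genes with a mean of at least 5 CPM were lower and 19.9% higher. GLA, alpha-galactosidase A, was at 37.9, 35.7 and 31.1 CPM in WT and at 23.4, 21.3 and 25.3 CPM in METTL3-KO cells, 66.9% of the WT mean (log2 fold change -0.58, SE 0.0982, adjusted p = 0.000987, edgeR). FUCA1, alpha-L-fucosidase, was at 88.6, 89.3 and 76.7 CPM in WT and at 57.4, 62.8 and 65.0 CPM in METTL3-KO cells (log2 fold change -0.46, SE 0.0848, adjusted p = 0.0017, edgeR). HEXA, the alpha subunit of beta-hexosaminidase, was at 15.4, 16.4 and 13.1 CPM in WT and at 10.2, 10.0 and 11.9 CPM in METTL3-KO cells (log2 fold change -0.49, SE 0.115, adjusted p = 0.0080, edgeR). For all 3 genes the highest METTL3-KO value was below the lowest WT value, although 16.7% of the exon bases of HEXA and 8.99% of those of GLA are shared with other genes.

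The other 6 glycosidases did not pass. GLB1, beta-galactosidase, was at 70.9, 74.5 and 70.0 CPM in WT and at 68.6, 67.1 and 67.1 CPM in METTL3-KO cells, without overlap but with a log2 fold change of only -0.09 (adjusted p = 0.398, edgeR). NEU1, the sialidase, GAA, the acid alpha-glucosidase that degrades glycogen, and the mannosidases MANBA and MAN2B1 had log2 fold changes of -0.09, -0.12, 0.02 and 0.23, and AGA, which cleaves the sugar-asparagine bond, one of 0.06. The summed level of the 9 glycosidases was 375.9 ± 21.8 CPM in WT and 331.2 ± 14.4 CPM in METTL3-KO libraries (SD, n = 3). The groups of this sum did not overlap, though WT replicate 3 at 350.8 CPM and METTL3-KO replicate 3 at 347.7 CPM were nearly equal.

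SMPD1 had the lowest fold change of all 47 genes. It encodes acid sphingomyelinase, which splits sphingomyelin into ceramide and phosphocholine, and lies at GRCh37 chr11:6411670-6416228 on the plus strand, with no exon bases shared with another gene. SMPD1 had 251, 170 and 161 counts in WT and 69, 48 and 47 counts in METTL3-KO libraries, or 9.14, 7.52 and 7.55 CPM against 2.29, 2.18 and 1.998 CPM. The METTL3-KO mean was 26.7% of the WT mean (log2 fold change -1.90, SE 0.144, adjusted p = 4.11e-06, edgeR). The gap between the groups was wider than the range within either of them.

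LIPA also fell and PPT1 rose among the lipid-handling and other soluble proteins, of which 9 of 10 were tested, and the other 6 did not pass. LIPA, the acid lipase of cholesteryl esters and triglycerides, was at 34.5, 36.9 and 33.8 CPM in WT and at 22.2, 24.6 and 23.9 CPM in METTL3-KO cells (log2 fold change -0.58, SE 0.0825, adjusted p = 0.000319, edgeR). PPT1, which removes fatty acids from lipid-modified proteins, was at 121.6, 131.6 and 111.2 CPM in WT and at 178.1, 175.1 and 178.4 CPM in METTL3-KO cells, 145.8% of the WT mean (log2 fold change 0.54, SE 0.0767, adjusted p = 0.000286, edgeR). The groups overlapped for neither gene, and no exon bases of PPT1 are shared with another gene.

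The ceramidase ASAH1, which acts on the product of acid sphingomyelinase, was at 48.9 ± 2.64 CPM in WT and 45.0 ± 0.470 CPM in METTL3-KO cells (SD, n = 3, log2 fold change -0.12, adjusted p = 0.269, edgeR). PSAP, the precursor of the saposins that help lipid hydrolases reach their substrates, was at 708.1, 707.6 and 663.9 CPM in WT and at 694.6, 685.4 and 740.5 CPM in METTL3-KO cells, with overlapping groups. GM2A, the activator of ganglioside breakdown, the sulfatase ARSA, the phosphatase ACP2 and progranulin (GRN) had log2 fold changes of -0.05, -0.07, -0.21 and 0.13, with adjusted p-values from 0.0821 to 0.728 (edgeR).

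**Figure D3:**
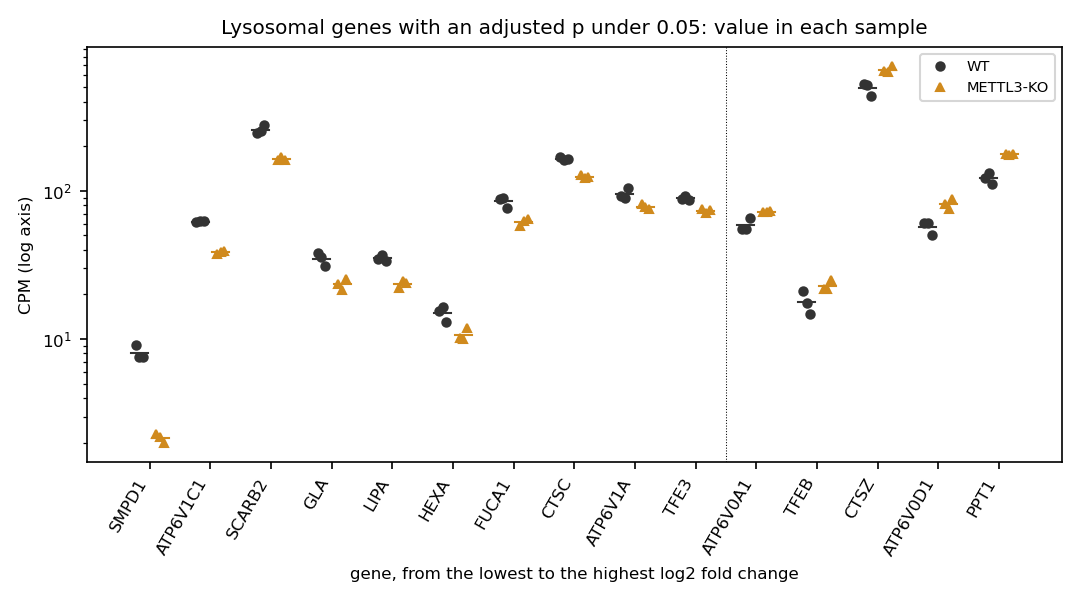
Level in CPM, on a log axis, of the 15 lysosomal genes called lower or higher, with each of the 3 WT and 3 METTL3-KO samples as a point and the mean as a line. The groups do not overlap for any of them, SMPD1 shows the widest gap, and TFEB and ATP6V0A1 show narrow ones.

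Subunits of the V-ATPase changed in both directions. This pump has a membrane ring (V0) through which protons pass and a cytosolic part (V1) that hydrolyses ATP. ATP6V1C1, the C subunit that helps join the parts, was at 61.2, 62.4 and 62.1 CPM in WT and at 37.6, 38.4 and 39.5 CPM in METTL3-KO cells, 62.2% of the WT mean (log2 fold change -0.685, SE 0.0709, adjusted p = 3.42e-05, edgeR). The SDs of its 2 groups were 0.621 and 0.983 CPM. ATP6V1A, the catalytic subunit, was at 92.6, 89.8 and 103.9 CPM in WT and at 80.9, 77.4 and 74.8 CPM in METTL3-KO cells (log2 fold change -0.30, SE 0.0786, adjusted p = 0.0153, edgeR). That call was lost without METTL3-KO replicate 2 (adjusted p = 0.0667) and without METTL3-KO replicate 3 (adjusted p = 0.0569).

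The 2 V-ATPase subunits that rose both belong to V0. ATP6V0D1 was at 60.4, 60.9 and 50.4 CPM in WT and at 81.1, 75.5 and 87.7 CPM in METTL3-KO cells (log2 fold change 0.51, SE 0.0922, adjusted p = 0.0016, edgeR). ATP6V0A1, the subunit that forms the proton path with the ring, was at 55.6, 55.5 and 65.8 CPM in WT and at 72.3, 72.4 and 72.7 CPM in METTL3-KO cells (log2 fold change 0.30, SE 0.0829, adjusted p = 0.0191, edgeR). The ATP6V0A1 call was lost in 4 of 6 fits that left out 1 sample: without METTL3-KO replicate 1 (adjusted p = 0.0649), METTL3-KO replicate 2 (0.0615), WT replicate 1 (0.0804) or WT replicate 2 (0.0655). V0 and V1 were not set apart by these values, because ATP6V1B2 of V1, at 28.5 ± 2.70 CPM in WT and 33.8 ± 1.14 CPM in METTL3-KO cells (SD, n = 3), lay higher without overlap and did not pass (adjusted p = 0.0627, edgeR), and ATP6V1H had a log2 fold change of 0.11.

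ATP6V0C, the proteolipid of the ring, had only 7 to 11 counts per library, with a log2 fold change of -0.29 that did not pass (SE 0.384, adjusted p = 0.624, edgeR). In GENCODE on GRCh37, 76.3% of its exon bases lie in other genes on the same strand. Reads that fall in 2 genes were left uncounted, but whether the authors' annotation holds those other genes was not checked. The part of this overlap in its low counts was not tested. The accessory subunit ATP6AP1 was at 174.8 ± 6.86 and 178.9 ± 12.2 CPM (SD, n = 3). The summed level of the 8 subunits was 507 ± 1.13 CPM in WT and 515.3 ± 19.8 CPM in METTL3-KO libraries.

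Of the 5 sorting genes 0 passed edgeR's test, DESeq2's test called 0 as well, and 0 had an unadjusted p under 0.05 in edgeR. This count depends on WT replicate 3: without it GNPTAB (adjusted p = 0.0032), GNPTG (0.0385) and IGF2R (0.0375) passed edgeR's test. It depends on the processing too, as GNPTG passed edgeR's test with all samples after a correction for transcript length and GC content (adjusted p = 0.0362). IGF2R, the large mannose 6-phosphate receptor, was at 156.4, 158.3 and 219.9 CPM in WT and at 200.3, 188.3 and 161.3 CPM in METTL3-KO cells. WT replicate 3 was above all METTL3-KO samples and METTL3-KO replicate 3 lay close to WT replicates 1 and 2, and the log2 fold change was 0.04 (adjusted p = 0.842, edgeR). GNPTAB, a subunit of the enzyme that begins the mannose 6-phosphate tag, showed the same arrangement, at 39.2, 39.1 and 53.9 CPM in WT and at 52.8, 51.2 and 44.6 CPM in METTL3-KO cells (log2 fold change 0.17, adjusted p = 0.342, edgeR). M6PR, the small receptor, was at 77.0, 81.4 and 85.5 CPM in WT and at 93.7, 87.7 and 86.3 CPM in METTL3-KO cells, just without overlap (log2 fold change 0.13, adjusted p = 0.214, edgeR). GNPTG, the other subunit of the tagging enzyme, and the receptor SORT1 had log2 fold changes of -0.18 and -0.02.

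**Figure D4:**
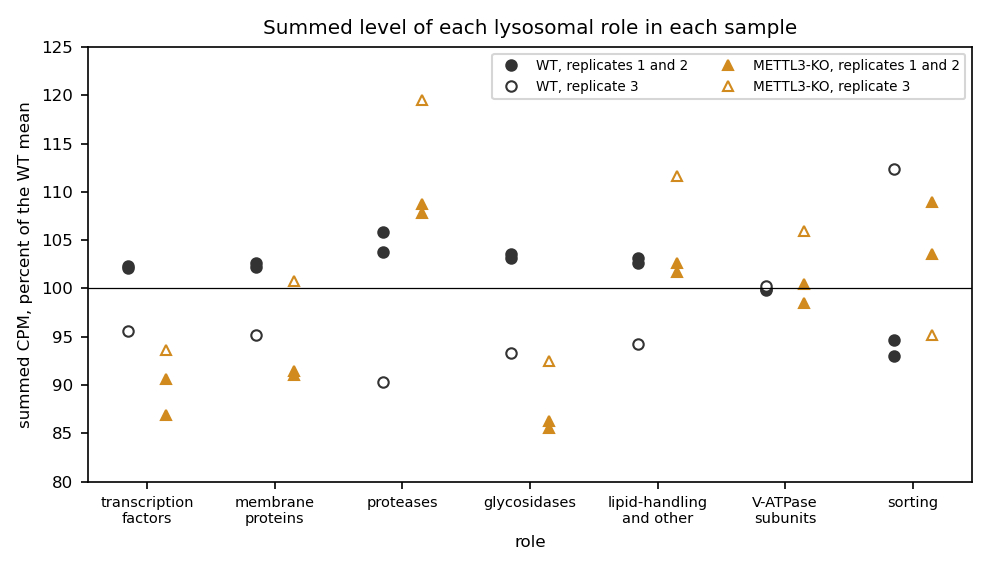
Summed CPM of the lysosomal genes of each role (x axis) as a percent of the WT mean (y axis, not starting at 0), with 1 point for each of the 3 WT and 3 METTL3-KO samples and open points for replicate 3. The sums lie lower in METTL3-KO samples for the transcription factors and glycosidases, higher for the proteases, and overlap for the other 4 roles.

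Across all 48 genes the summed level was 5614, 5602 and 5227 CPM in WT and 5539, 5472 and 5926 CPM in METTL3-KO libraries, and the groups overlapped. Per kilobase of transcript, WT levels were highest for CD63 at 419.5, CTSZ at 327.9, PSAP at 252.3 and GRN at 165.9 CPM per kilobase. The genes that fell ran from HEXA at 3.13 and SMPD1 at 3.35, near the bottom of the lysosomal genes, to SCARB2 at 55.2 and CTSC at 87.5 CPM per kilobase. Of the tested genes with a known transcript length 55.7% were at a higher level than SMPD1.

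The third replicates bear on how many of these genes are called. Without replicate 3 of both groups, 20 of the 47 lysosomal genes were lower and 9 higher. Over all 21242 genes tested in that fit 22.7% were lower and 21.4% higher. The lower genes were thus a larger share of the lysosomal genes than of all genes in that fit, and the higher ones were not. The shares for genes with a mean of at least 5 CPM were not computed for it. Replicates 1 and 2 of each group lay close together, and the part of this in the larger number of calls was not tested. Of the 15 genes called with all samples 14 passed without the third replicates, and TFEB did not (log2 fold change 0.17, adjusted p = 0.0887, edgeR). Genes gained included IGF2R (log2 fold change 0.30, adjusted p = 2.01e-08), GNPTAB (0.41, adjusted p = 5.65e-08), M6PR (0.20, adjusted p = 0.000782), GNPTG (-0.26, adjusted p = 0.000819) and LAMP1 (-0.23, adjusted p = 1.81e-06), by edgeR. Without WT replicate 3 alone, 7 genes were gained: LAMP1, TPP1, ACP2, ATP6V1B2, GNPTAB, GNPTG and IGF2R. With 1 sample left out at a time, 11 of the 15 calls held in all 6 fits: SCARB2, CTSC, GLA, HEXA, FUCA1, SMPD1, LIPA and ATP6V1C1 lower, and CTSZ, PPT1 and ATP6V0D1 higher.

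**Figure D5:**
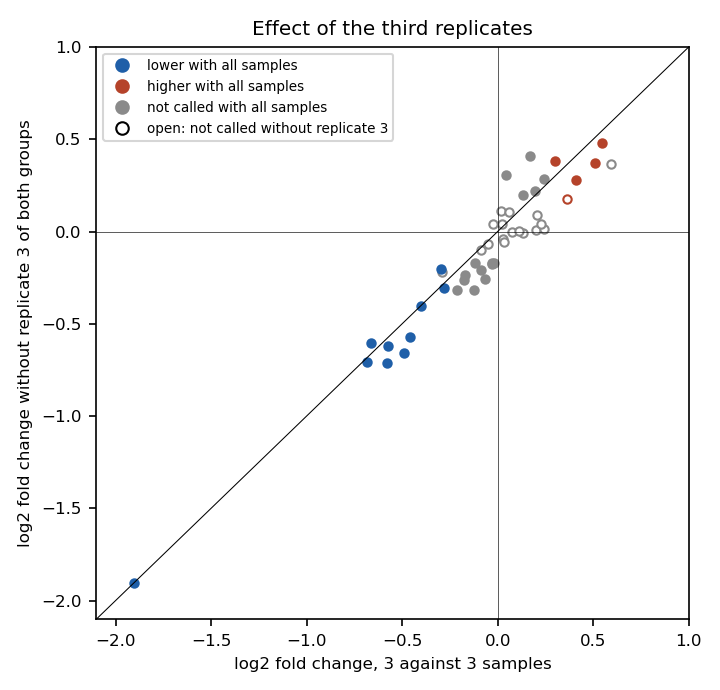
Log2 fold change (METTL3-KO over WT) of each lysosomal gene with all 6 samples (x axis) against that without replicate 3 of both groups (y axis), each point 1 gene, coloured by its call with all samples and open where not called without replicate 3. Genes far from the diagonal, such as IGF2R at 0.04 and 0.30 and GNPTAB at 0.17 and 0.41, depend on the third replicates, while SMPD1 stays at the lower end of both.

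Other genes of the lysosomal system, in 7 lists that hold none of the 48 and include autophagy and TFEB control, also changed in both directions. Of 119 such genes 116 were tested, 23 (19.8%) were lower and 22 (19.0%) higher, about the shares of the background at 5 CPM or more (20.7% and 19.9%), and their median log2 fold change was -0.02. Enzymes that degrade glycosaminoglycans had 5 of 12 lower and 2 higher. ARSB, a sulfatase, fell from 2.81 ± 0.486 to 1.05 ± 0.0173 CPM (SD, n = 3, log2 fold change -1.43, adjusted p = 0.000324, edgeR). HYAL1, a hyaluronidase, rose from 46, 35 and 38 counts in WT to 225, 156 and 224 in METTL3-KO libraries (log2 fold change 2.26, SE 0.165, adjusted p = 3.19e-06, edgeR).

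Of 21 tested further hydrolases and cofactors 6 (28.6%) were lower and 4 (19%) higher. Beside this and the next counts, 20.7% of all tested genes with a mean of at least 5 CPM were lower and 19.9% higher. The cathepsin CTSV was at 54.0% of its WT mean (log2 fold change -0.90, adjusted p = 0.000107, edgeR) and the ribonuclease RNASET2 at 66.2% (-0.60, adjusted p = 0.000325, edgeR). Of 20 further membrane proteins and transporters 5 (25%) were lower and 4 (20%) higher. OSTM1, the partner of the chloride transporter CLCN7, rose to 217.9% of its WT mean (adjusted p = 9.31e-06) and LAPTM4B fell to 65.5% (adjusted p = 9.62e-05, edgeR). Of 20 further genes for sorting and fusion 1 (5%) was lower and 2 (10%) were higher, both under the background shares. Among them AP3D1, a subunit of the AP-3 adaptor, was at 139.0% of its WT mean (log2 fold change 0.48, adjusted p = 0.000279, edgeR).

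Of 11 tested further V-ATPase subunits 3 (27.3%) were lower and 2 (18.2%) higher, beside 20.7% and 19.9% of all tested genes at 5 CPM or more. ATP6V1G1, of the V1 part, rose to 176.6% of its WT mean (log2 fold change 0.82, adjusted p = 9.2e-05, edgeR). ATP6V0A4, an isoform of the V0 a subunit known from kidney and inner ear, had 1, 1 and 2 counts in WT and 29, 18 and 40 in METTL3-KO libraries, in all 4 against 87. Per count of library total, without TMM factors, the ratio was 20.5, with an exact 95% interval of 7.73 to 77 that covers counting error only. In this list the subunits that rose came from both V1 and V0.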

How the data were processed

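RNA-seq of polyA RNA from 3 WT and 3 METTL3-KO samples was analysed. The authors mapped paired reads to hg19 with TopHat2 version 2.0.11 and assigned the pairs to genes with HTSeq. What they deposited are raw counts for each gene symbol, without normalization. Rows that name no gene held 6.03 to 9.08% (no feature), 7.95 to 8.77% (ambiguous) and 13.4 to 14.7% (not unique) of a library and were left out, so reads in bases that 2 genes share are missing. The library kit does not mark strand, and 12 of the 48 genes share 10% or more of their exon bases with another gene (GENCODE on GRCh37).

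From the counts, CPM was computed with TMM factors, and METTL3-KO was compared with WT by edgeR 4.0.16 (R 4.3.3), using the quasi-likelihood test on genes with at least 5 counts in either condition, with the 6 samples and no covariate. Values were adjusted by Benjamini-Hochberg over all 22452 genes, and the test was run first on simulated data with known changes. An SE is that of the log2 fold change, and ± is the SD over 3 samples. Alternatives were DESeq2 1.42.0, RLE normalization, other filters, a replicate block, leaving out samples, and a length and GC correction chosen after seeing the data. The genes and lists were chosen with earlier results of these data known. All 48 genes are accounted for. From the other lists, the 3 genes with the lowest adjusted p were eligible to be named. Some items are not reported here.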

Additional observations from a re-analysis of the deposited data

How the results depend on the processing

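All 15 calls passed with DESeq2, RLE normalization, both other filters and the length and GC correction, which was chosen after seeing the data. TPP1 was gained with DESeq2, RLE normalization, the edgeR expression filter and the length and GC correction, and CD63 and CTSD with no filter beyond 1 count and with the correction. ATP6V1B2 was gained with both other filters and with the correction. LAMP1, ACP2, GRN and GNPTG were gained with the correction only. The number of lysosomal genes higher in METTL3-KO cells, 5 of the 2986 genes called higher over the whole table, became 8 of 3425 without a filter beyond 1 count, 10 of 3923 with the length and GC correction and 3 of 1810 with the replicate block. The number lower, 10 of the 2959 called lower, became 13 of 3885 with the correction and 7 of 1719 with the replicate block, where TFEB (adjusted p = 0.123), TFE3 (0.0939), HEXA (0.0511), ATP6V0A1 (0.0859) and ATP6V1A (0.0963) were lost. The numbers are not shown to pair the samples: same-numbered samples deviated from their group means with correlations of -0.586, -0.390 and -0.784 over 10336 genes. Leaving out samples gave 8 to 20 genes lower and 3 to 9 higher, the largest numbers without replicate 3 of both groups. Over all genes the fits without 1 sample gave 1976 to 3793 lower and 2188 to 3809 higher. WT replicate 3 alone moved the higher count to 8, and METTL3-KO replicate 1, METTL3-KO replicate 2 and WT replicate 2 each moved it to 3.

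Some fold changes near 0 changed sign, none of them called in the fit of all samples. IGF2R went to -0.0165 with the length and GC correction. When samples were left out, the log2 fold change ran from -0.0274 to 0.1097 for LAMP2, from -0.1681 to 0.0267 for CLN3, from -0.1777 to 0.0281 for CTSA, from -0.0033 to 0.1217 for CTSB, from -0.1693 to 0.0528 for CTSH, from -0.0061 to 0.0463 for MANBA, from -0.2597 to 0.0103 for ARSA, from -0.0382 to 0.0532 for PSAP, from -0.0097 to 0.1783 for GRN, from -0.0573 to 0.0712 for ATP6AP1, from -0.0418 to 0.3037 for IGF2R and from -0.0512 to 0.04 for SORT1. The cause was not tested.

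With 3 samples a group and the METTL3-KO samples from 1 clone, the main fit called no lysosomal gene within 0.25 of 0 on the log2 scale. Other fits called some of these, such as TPP1 with DESeq2 (0.21, adjusted p = 0.0337). With the length and GC correction CD63 was another (0.23, adjusted p = 0.000927, edgeR). MITF and ATP6V0C had at most 14 counts per library and GALC at most 1, so little can be said of them. What keeps their counts low was not tested.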

Other observations

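Genes that control TFEB through mTORC1 and calcineurin, and genes of autophagy, lie upstream of and beside the lysosome. Of 17 tested genes of TFEB control 1 was lower and 4 were higher, with a median log2 fold change of 0.02. PPP3CB, a catalytic subunit of calcineurin, which removes phosphate from TFEB, had 988, 847 and 822 counts in WT and 1517, 1084 and 1216 in METTL3-KO libraries (log2 fold change 0.43, adjusted p = 0.000963, edgeR). FLCN, folliculin, rose to 126.4% of its WT mean (adjusted p = 0.0145, edgeR), a call that was lost without WT replicate 2 (adjusted p = 0.0560).

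Of 15 autophagy genes 2 were lower and 4 higher. WIPI1, which binds phosphoinositides at the forming autophagosome, rose to 247.7% of its WT mean (log2 fold change 1.30, SE 0.102, adjusted p = 5.27e-06, edgeR), with 28.1% of its exon bases shared with genes on the opposite strand. MAP1LC3B, which encodes the LC3B protein of the autophagosome membrane, fell to 50.3% of its WT mean, from 47.6 to 23.9 CPM (log2 fold change -0.99, SE 0.101, adjusted p = 2.99e-05, edgeR). BECN1, a subunit of the lipid kinase complex that starts autophagosomes, rose from 47.5 to 61.4 CPM (log2 fold change 0.37, adjusted p = 0.0032, edgeR). In both lists genes moved in both directions, as did all tested genes with a mean of at least 5 CPM (20.7% lower and 19.9% higher).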
